A study of Mus musculus with 16 samples.

Results

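The genes described here encode the enzymes that conjugate drugs, hormones and metabolites in the liver: the glutathione transferases with their microsomal relatives (GST and MGST), the UDP-glucuronosyltransferases (UGT) and the sulfotransferases (SULT). Members were the protein-coding genes whose symbol starts with Gsta, Gstk, Gstm, Gsto, Gstp, Gstt, Mgst, Ugt1, Ugt2, Ugt3 or Sult followed by a number, with pseudogenes left out. The rule found 66 members among 46078 genes in the table, made up of 24 GST or MGST genes, 21 UGT genes and 21 SULT genes. Messenger RNA was sequenced from whole livers of 22-week-old C57BL/6 mice in 4 groups of 4 libraries each. All 4 groups had diet-induced obesity with hepatic steatosis. The groups received saline vehicle (labelled Saline), Dicretin, a co-agonist of the receptors for glucagon-like peptide-1 (GLP1) and glucagon (GCGR), Semaglutide, an agonist of the GLP1 receptor, or calorie restriction to an equivalent weight loss (Calorie restricted). Doses, duration, diet, sex and how the 4 samples of each group were selected are not given in the sources used here. The labels number the libraries without stating the animal behind each, so p-values measure the spread between these samples. The design sets the co-agonist against a GLP1 receptor agonist and against weight loss alone.

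As background, GST enzymes join the thiol of glutathione to electrophiles, UGT enzymes join the sugar of a UDP-sugar, usually glucuronic acid, to hydroxyl and carboxyl groups, and SULT enzymes move a sulfonate group from the activated sulfate donor PAPS to phenols, steroids and bile acids. The products are more soluble in water and leave the hepatocyte through transporters into bile or blood. Genes of each family lie in clusters of close copies, and several are targets of the xenobiotic receptors CAR (Nr1i3), PXR (Nr1i2) and AhR (Ahr) and of the stress regulator NRF2 (Nfe2l2).

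Library totals ran from 12143829 to 18755393 counts, and members held 1.17% to 1.66% of the counts of a library. Levels are given as CPM, the count of a gene scaled to a common library total. Values for a group are listed in the order Saline 35, 50, 73 and 78, Calorie restricted 7, 8, 52 and 79, Semaglutide 11, 15, 31 and 51, and Dicretin 14, 23, 64 and 65. On the second principal component of all tested genes, Semaglutide 11 lay at -60.09 while its 3 group mates lay from -15.3 to 1.39, and Dicretin libraries were spread from -30.52 to 39.25, with Dicretin 14 at the upper end. The hepatocyte markers were abundant in all 16 libraries, which matches the labelled tissue. Their summed level over 7 markers was 95120 to 116720 CPM in saline, 125170 to 144840 CPM under calorie restriction, 118280 to 146270 CPM with Semaglutide and 77506 to 95329 CPM with Dicretin. Alb was the largest part of each sum, at 81648 CPM on average in saline and 59616 CPM with Dicretin. Of the 7 markers, 2 were called higher and 1 lower with Dicretin than in saline (28.6% and 14.3%, against 17.5% and 19.2% of all genes tested). Every Dicretin library lay above the saline range for Hnf4a and Cps1, and the other markers overlapped. Dicretin 64 held exocrine pancreas transcripts: its 4 pancreas markers summed to 959 CPM against 6.32 to 87.1 CPM in the other 15 libraries, and Prss2 was at 0 in each of those 15. The 8 macrophage markers summed to 183 to 316 CPM in saline, 66.4 to 258 CPM under calorie restriction, 87.1 to 345 CPM with Semaglutide and 184 to 546 CPM with Dicretin. None of the 8 macrophage markers was called between Dicretin and saline, and 5 of 8 were higher with Dicretin than under calorie restriction. The 6 cholangiocyte markers summed to 63.1 to 81.4 CPM in saline, 40.4 to 67.0 CPM under calorie restriction, 35.1 to 93.2 CPM with Semaglutide and 28.5 to 49.8 CPM with Dicretin, below saline without overlap, and 1 of the 5 tested was called lower with Dicretin than in saline. Most of that sum was Spp1, at 47.8 to 75.4 CPM in saline and 24.4 to 43.2 CPM with Dicretin. Krt19, Krt7, Epcam, Sox9 and Cftr each overlapped between Dicretin and saline. The 8 stellate cell and fibroblast markers summed to 232 to 361 CPM in saline, 267 to 322 CPM under calorie restriction, 261 to 335 CPM with Semaglutide and 198 to 249.98 CPM with Dicretin, and 1 of 8 was called lower with Dicretin than in saline. The summed endothelial, lymphocyte, neutrophil and blood markers overlapped between Dicretin and saline, and the 4 adipocyte markers summed to at most 1.49 CPM in any library. The part of these differences in the results below was not tested, and in whole liver fewer cells of a type and less RNA per cell cannot be told apart.

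A total of 44 members had enough counts to be tested, 21 of the 24 GST genes, 15 of the 21 UGT genes and 8 of the 21 SULT genes. A gene was called at a Benjamini-Hochberg adjusted p under 0.05 from edgeR's quasi-likelihood test, adjusted over all 12910 genes tested in a comparison. The 4 groups differed for 29 of the 44 tested members in an overall test, against 43.7% of all genes tested. In Dicretin against saline 27 members were called, 8 higher and 19 lower, while 36.7% of all genes tested were called (17.5% higher and 19.2% lower). The median log2 fold change of the 44 tested members was -0.57 in that comparison and -0.0054 over all genes tested. Semaglutide against saline called 6 members, 1 higher and 5 lower, against 4.18% of all genes tested (1.56% higher and 2.62% lower). Calorie restriction against saline called 3 members, 1 higher and 2 lower, against 7.53% of all genes tested (3.42% higher and 4.11% lower). Those 3 comparisons share the saline libraries. Dicretin against calorie restriction called 21 members, 8 higher and 13 lower, against 31.3% of all genes tested (15.1% higher and 16.2% lower). Dicretin against Semaglutide called 25 members, 9 higher and 16 lower, against 32% of all genes tested (14.8% higher and 17.1% lower). Semaglutide against calorie restriction called 5 members, 4 higher and 1 lower, against 6.12% of all genes tested (3.05% higher and 3.07% lower). That last count was 2 without Calorie restricted 8, Calorie restricted 52 or Semaglutide 31, 3 without Calorie restricted 7 or Semaglutide 11, and 9 without Dicretin 14. The count for calorie restriction against saline rose to 5 without Calorie restricted 8 or Semaglutide 11.

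**Figure D1:**
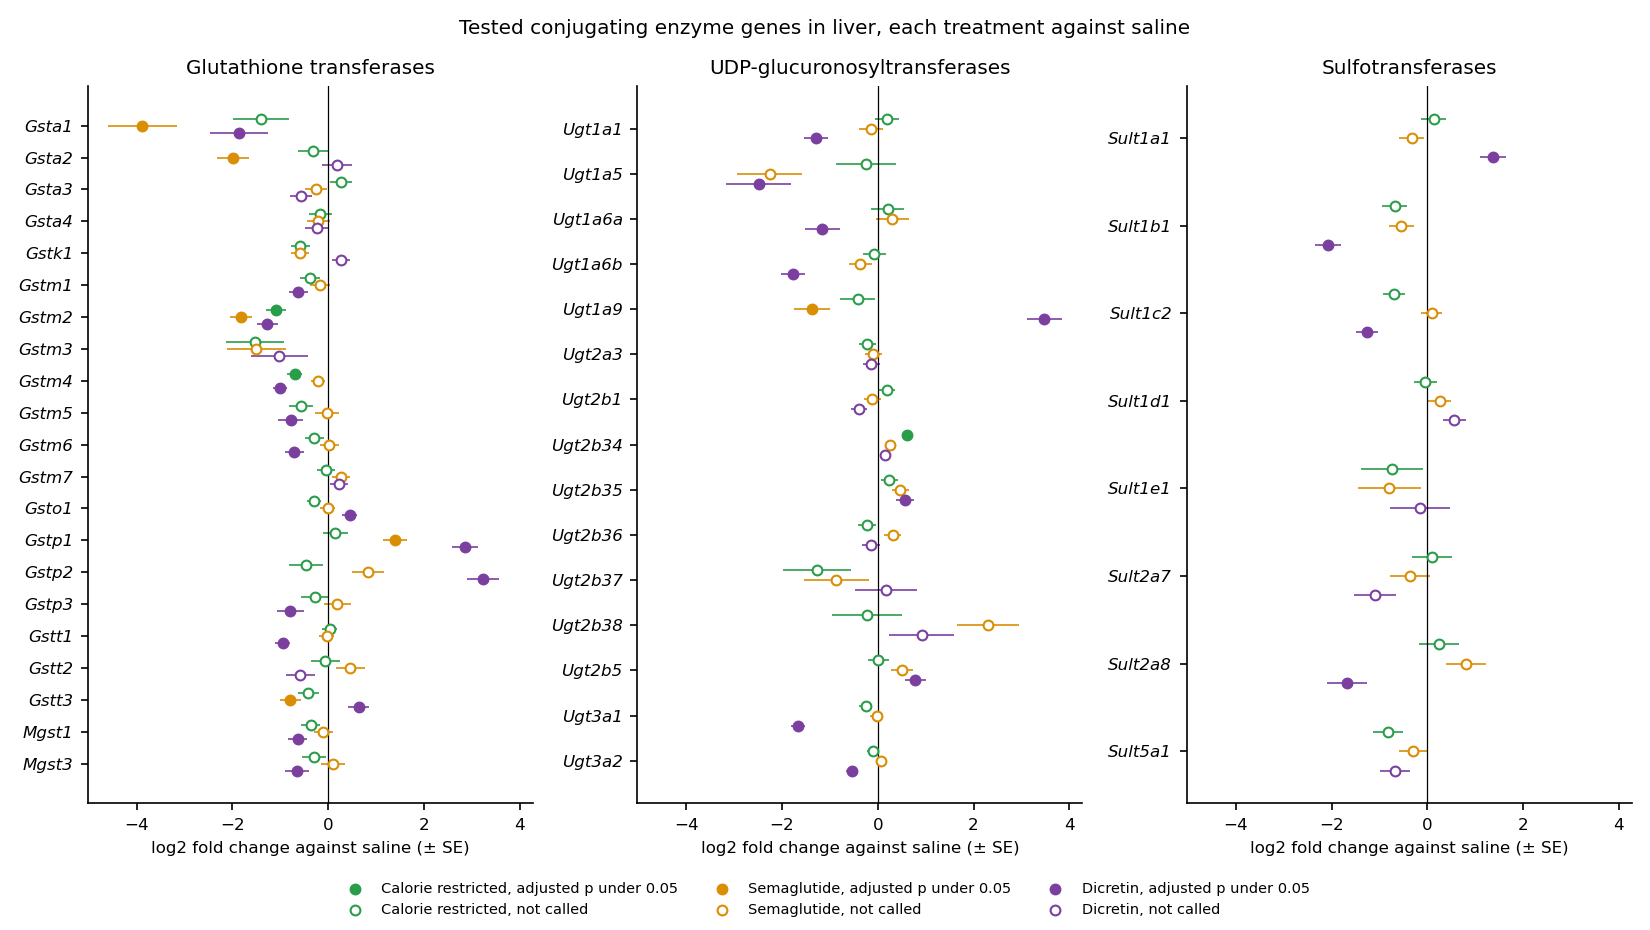
log2 fold changes (± SE) against saline of the 44 tested members, by superfamily, for calorie restriction, Semaglutide and Dicretin, with filled points where the adjusted p was under 0.05. Dicretin has 27 filled points, from -2.49 for Ugt1a5 to 3.48 for Ugt1a9, against 6 for Semaglutide and 3 for calorie restriction.

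The pi class of glutathione transferases held the largest rise among GST genes. Gstp1 (ENSMUSG00000060803, chr19:4035407-4037985, minus strand) encodes the main pi-class enzyme, known for detoxifying electrophiles and for removing glutathione from or adding it to protein thiols. Gstp1 was at 411, 371, 283 and 407 CPM in the saline libraries, 524, 405, 345 and 363 CPM under calorie restriction, 1092, 691, 1255 and 838 CPM with Semaglutide and 1529, 3449, 3682 and 2049 CPM with Dicretin. Every Dicretin library lay above every Semaglutide library, and every Semaglutide library lay above all 8 saline and calorie-restricted libraries. Against saline, Gstp1 rose with Dicretin (log2 fold change 2.86 ± 0.27 SE, adjusted p = 2.73e-07) and with Semaglutide (log2 fold change 1.40 ± 0.26 SE, adjusted p = 0.00391). With calorie restriction the log2 fold change was 0.15 ± 0.25 (adjusted p = 0.768). The Dicretin level was also higher than under calorie restriction (log2 fold change 2.71 ± 0.27 SE, adjusted p = 5.91e-07) and with Semaglutide (log2 fold change 1.47 ± 0.26 SE, adjusted p = 0.000255), and Semaglutide exceeded calorie restriction (log2 fold change 1.24 ± 0.25 SE, adjusted p = 0.00698).

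Gstp2, the neighbouring copy of Gstp1, was at 2.47, 2.33, 1.36 and 3.31 CPM in saline, 2.04, 1.91, 1.99 and 0.868 CPM under calorie restriction, 3.98, 3.59, 6.74 and 2.44 CPM with Semaglutide and 17.6, 30.7, 24.4 and 16.5 CPM with Dicretin. The Dicretin libraries again lay above all 12 others. Gstp2 rose with Dicretin against saline (log2 fold change 3.24 ± 0.33 SE, adjusted p = 7.41e-07), and with Semaglutide it was at 0.83 ± 0.33 (adjusted p = 0.176). A share of 54.3% of the 50-base stretches of Gstp2 transcripts also occurs in another gene, chiefly Gstp1, so its counts are uncertain. Per kilobase of exon its level was 0.877% ± 0.191 (SD, n = 4) of that of Gstp1 in saline and 1.22% ± 0.286 (SD, n = 4) with Dicretin. The call of a higher Gstp2 with Semaglutide than under calorie restriction (log2 fold change 1.29 ± 0.34 SE, adjusted p = 0.0303) was lost without Calorie restricted 7, 8, 52, 79 or Semaglutide 11, 31 (adjusted p from 0.0521 to 0.129). Gstp3, the third gene of the cluster, shares no such stretch with another gene, and it went the other way. Its Dicretin libraries ran from 11.2 to 15.5 CPM and its saline libraries from 19.4 to 25.8 CPM, with no overlap (log2 fold change -0.79 ± 0.28 SE, adjusted p = 0.0332). That call was lost without Saline 35, 50, 73 or Dicretin 14, 23, 65 (adjusted p from 0.0548 to 0.0947).

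The sequences before the transcription starts of the 3 pi-class genes are shown because these neighbours went in opposite directions. Each run is the 250 bases upstream of the RefSeq start in GRCm38.p6, 5′ to 3′ on the gene's strand, and capitals mark the letters TGACTCA or their reverse complement, the AP-1 consensus.
Gstp1 (chr19:4037913-4038162, minus strand): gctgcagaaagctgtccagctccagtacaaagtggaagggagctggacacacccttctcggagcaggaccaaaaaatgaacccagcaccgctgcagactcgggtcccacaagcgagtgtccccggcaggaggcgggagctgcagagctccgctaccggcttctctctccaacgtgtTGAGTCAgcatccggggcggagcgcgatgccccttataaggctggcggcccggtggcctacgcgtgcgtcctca
Gstp2 (chr19:4042222-4042471, minus strand): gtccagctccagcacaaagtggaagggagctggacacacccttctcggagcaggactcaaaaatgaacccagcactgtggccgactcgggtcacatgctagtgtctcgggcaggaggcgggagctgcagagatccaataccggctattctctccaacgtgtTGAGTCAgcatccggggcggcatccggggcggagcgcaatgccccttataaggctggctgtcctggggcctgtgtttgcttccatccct
Gstp3 (chr19:4059448-4059697, minus strand): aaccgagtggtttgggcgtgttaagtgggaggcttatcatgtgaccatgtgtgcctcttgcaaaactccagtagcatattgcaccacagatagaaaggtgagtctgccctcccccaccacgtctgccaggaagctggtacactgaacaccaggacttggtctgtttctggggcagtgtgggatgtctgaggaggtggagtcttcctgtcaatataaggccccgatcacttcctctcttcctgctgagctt
Gstp1 and Gstp2 were identical at 78.1% of the columns of a global alignment of these runs, and Gstp1 and Gstp3 at 46.4%. The marked letters start 74 bases before the Gstp1 start and 89 bases before the Gstp2 start, and they are not in this window of Gstp3. In the same window they occur in 4.46% of all 32851 RefSeq promoters and in 8 of the 58 members with a promoter in the table. Among these 8, Gstm5 was called lower with Dicretin than in saline and Ugt2b37 was not called. Mgst2, Sult1c1, Sult2b1 and Ugt2a2 were not tested. The letters are thus in the window of genes that rose and of a gene that fell. A match is a description of the letters, and binding was not measured.

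The alpha class, which handles lipid peroxidation products and steroid intermediates, was lower with Semaglutide than in saline in 2 of its 4 members, Gsta1 and Gsta2. That is 50%, against 2.62% of all genes tested. Gsta2 was at 29.6, 24.9, 32.9 and 28.4 CPM in saline and 24.3, 21.3, 27.8 and 19.7 CPM under calorie restriction. The Semaglutide libraries were at 7.65, 3.87, 13.7 and 3.94 CPM and the Dicretin libraries at 23.2, 34.8, 49.2 and 24.4 CPM. All 4 Semaglutide libraries lay below the other 12 libraries. Gsta2 fell with Semaglutide against saline (log2 fold change -1.99 ± 0.33 SE, adjusted p = 0.00177) and against calorie restriction (log2 fold change -1.68 ± 0.32 SE, adjusted p = 0.00455), and Dicretin exceeded Semaglutide (log2 fold change 2.17 ± 0.33 SE, adjusted p = 6.07e-05). With Dicretin against saline it was at 0.18 ± 0.31 (adjusted p = 0.670). Gsta1, a close copy, ranged from 1.49 to 9.84 CPM in saline, 0.735 to 3.45 CPM under calorie restriction, 0 to 0.675 CPM with Semaglutide and 0.697 to 2.14 CPM with Dicretin. Gsta1 fell with Semaglutide (log2 fold change -3.88 ± 0.72 SE, adjusted p = 0.00401). Of its 50-base stretches, 90.5% occur in another gene, so its counts are uncertain. Its lower level with Dicretin than in saline (log2 fold change -1.87 ± 0.61 SE, adjusted p = 0.0218) was lost without Saline 35 (adjusted p = 0.119), Saline 50 (0.0576), Dicretin 23 (0.0680) or Dicretin 65 (0.0554).

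Gsta3, the abundant alpha-class enzyme that inactivates aflatoxin epoxide in mice, was at 2245, 2330.5, 2293 and 2473 CPM in saline, 2492, 2814, 2979.6 and 2921 CPM under calorie restriction, 2796, 1833, 1857 and 1372 CPM with Semaglutide and 949, 1979, 2153 and 1219.7 CPM with Dicretin. The Dicretin libraries lay below the calorie-restricted ones without overlap (log2 fold change -0.83 ± 0.23 SE, adjusted p = 0.0109), and below saline as well, but that difference was not called (log2 fold change -0.57 ± 0.23 SE, adjusted p = 0.0612). It was called without Semaglutide 11 (adjusted p = 0.0320), Dicretin 23 (0.0459) or Dicretin 64 (0.0201), and with upper quartile factors (adjusted p = 0.0420). Gsta4, which conjugates 4-hydroxynonenal, was called in none of the 6 comparisons, and its adjusted p for a difference among the 4 groups was 0.791.

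The mu class was lower under all 3 treatments in its member Gstm2. Gstm2 was at 119.5, 99.3, 102 and 77.7 CPM in saline and 41.2, 65.5, 47.1 and 33.9 CPM under calorie restriction. With Semaglutide the values were 31.6, 31.2, 24.1 and 26.4 CPM, and with Dicretin they were 51.5, 52.3, 27.7 and 33.2 CPM. No treated library reached the lowest saline library. Gstm2 fell with Semaglutide (log2 fold change -1.82 ± 0.22 SE, adjusted p = 0.000148), with Dicretin (log2 fold change -1.28 ± 0.22 SE, adjusted p = 0.000197) and with calorie restriction (log2 fold change -1.09 ± 0.22 SE, adjusted p = 0.00503), and no pair of treatments was called apart in the edgeR fit of all libraries. The DESeq2 Wald test called Semaglutide lower than calorie restriction (adjusted p = 0.0267). Semaglutide was lower than calorie restriction without Calorie restricted 79 (adjusted p = 0.0377), Dicretin 14 (0.0386), Dicretin 64 (0.0391) or Dicretin 65 (0.0497), and lower than Dicretin without Calorie restricted 8 (adjusted p = 0.0486), Dicretin 64 (0.0213) or Dicretin 65 (0.0463). Gstm4 was at 41.4, 39.8, 33.3 and 32.9 CPM in saline, 21.8, 21.7, 22.9 and 24.3 CPM under calorie restriction, 33.5, 27.2, 29.03 and 38.1 CPM with Semaglutide and 21.3, 19.1, 18.7 and 13.9 CPM with Dicretin. Its Dicretin and calorie-restricted libraries lay below all saline libraries, while its Semaglutide libraries overlapped saline. Gstm4 fell with Dicretin (log2 fold change -1.01 ± 0.15 SE, adjusted p = 5.26e-05) and with calorie restriction (log2 fold change -0.70 ± 0.15 SE, adjusted p = 0.00804), and it was lower with Dicretin than with Semaglutide (log2 fold change -0.80 ± 0.15 SE, adjusted p = 0.000529).

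Gstm1, the most abundant mu-class gene per kilobase of exon (759 CPM per kb), was at 1576, 1372, 1313 and 1150.2 CPM in saline and 999, 1127, 1048 and 989 CPM under calorie restriction. Its values were 1006, 1069, 1499.5 and 1219.8 CPM with Semaglutide and 1239.8, 858, 912 and 509 CPM with Dicretin. Dicretin 14 lay inside the saline range and the other 3 Dicretin libraries below it. Gstm1 fell with Dicretin (log2 fold change -0.62 ± 0.21 SE, adjusted p = 0.0241). This call was lost without Saline 35 (adjusted p = 0.0807), Saline 50 (0.0561), Dicretin 23 (0.0589) or Dicretin 65 (0.0658). Over the class, 5 of 7 members were lower with Dicretin than in saline (Gstm1, Gstm2, Gstm4, Gstm5 and Gstm6), none was higher, and the median log2 fold change was -0.78. The lower genes made up 71.4%, against 19.2% of all genes tested. Gstm5 (-0.78, adjusted p = 0.0235) lost its call without Saline 73 (adjusted p = 0.0543), Saline 78 (0.0612), Dicretin 23 (0.0543) or Dicretin 64 (0.0665). Gstm6 was at -0.71, adjusted p = 0.00982, and Gstm7 at 0.23, adjusted p = 0.366. Gstm3 was at 82.4, 51.2, 36.1 and 20.8 CPM in saline and 61.4, 16.5, 12.6 and 2.77 CPM with Dicretin. Dicretin 14 lay inside the saline range and the other 3 Dicretin libraries below it. With Dicretin against saline Gstm3 was not called (-1.02, adjusted p = 0.201), and without Dicretin 14 it was (log2 fold change -2.14, adjusted p = 0.00352). It was also at 12.2 to 18.8 CPM under calorie restriction and 13.2 to 20.9 CPM with Semaglutide. Neither was called against saline (-1.53, adjusted p = 0.145 and -1.50, adjusted p = 0.193). In fits of the 2 groups alone both were called lower (adjusted p = 0.0448 and 0.0277). Calorie restriction was also called lower without Dicretin 14 (adjusted p = 0.0384). None of the 7 mu-class genes was called between Dicretin and calorie restriction with all libraries, against 31.3% of all genes tested. Gstm6 was called lower without Dicretin 23 (log2 fold change -0.74, adjusted p = 0.00130).

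Within the theta class, whose enzymes act on small halogenated compounds, neighbouring genes parted. Gstt1 was at 290.4, 350.2, 348 and 325 CPM in saline, 317, 387, 303 and 333 CPM under calorie restriction, 427, 302, 297 and 258 CPM with Semaglutide and 162, 184, 161 and 171 CPM with Dicretin. The 4 Dicretin libraries lay close together and below the other 12 libraries. Gstt1 fell with Dicretin against saline (log2 fold change -0.95 ± 0.15 SE, adjusted p = 8.48e-05), calorie restriction (log2 fold change -0.98 ± 0.15 SE, adjusted p = 8.11e-05) and Semaglutide (log2 fold change -0.92 ± 0.15 SE, adjusted p = 0.000131). Gstt3 was at 57.3, 64.8, 81.04 and 99.6 CPM in saline and 56.8, 64.9, 53.6 and 51.5 CPM under calorie restriction. The Semaglutide libraries were at 61.6, 35.1, 46.2 and 31.6 CPM and the Dicretin libraries at 79.4, 125, 148 and 119 CPM. Its Dicretin libraries lay above all calorie-restricted and Semaglutide libraries and overlapped saline. Gstt3 was higher with Dicretin than with Semaglutide (log2 fold change 1.44 ± 0.22 SE, adjusted p = 7.96e-05) and calorie restriction (log2 fold change 1.06 ± 0.22 SE, adjusted p = 0.00140). The rise against saline (log2 fold change 0.64 ± 0.22 SE, adjusted p = 0.0279) was lost without Saline 35 (adjusted p = 0.0913), Saline 50 (0.0711), Dicretin 23 (0.0514) or Dicretin 64 (0.0923). The fall with Semaglutide (log2 fold change -0.80 ± 0.22 SE, adjusted p = 0.0486) was lost without Saline 50, 73, 78, Calorie restricted 7, 8, 52, 79, Semaglutide 15, 31, 51 or Dicretin 23 (adjusted p from 0.0573 to 0.134).

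Mgst1, a membrane-bound transferase of the endoplasmic reticulum and outer mitochondrial membrane with peroxidase activity, was the most abundant member per kilobase (1545 CPM per kb). Mgst1 was at 3541, 3918, 3744 and 3649.7 CPM in saline, 2442, 3829, 2751 and 2501 CPM under calorie restriction, 5161, 2888, 3018 and 2772 CPM with Semaglutide and 2020.3, 2268, 2664 and 2604 CPM with Dicretin. The Dicretin libraries lay below all saline libraries, and Semaglutide 11 stood above every other library. Mgst1 fell with Dicretin (log2 fold change -0.64 ± 0.20 SE, adjusted p = 0.0165). Its lower level with Dicretin than with Semaglutide (log2 fold change -0.53 ± 0.20 SE, adjusted p = 0.0446) was lost without Saline 35, 50, 73, 78, Calorie restricted 7, 52, 79, Semaglutide 11, 31 or Dicretin 14, 23, 65 (adjusted p from 0.0502 to 0.199), and without Semaglutide 11 its log2 fold change was -0.28. Mgst3, a relative that can make leukotriene C4, was at -0.65, adjusted p = 0.0435 with Dicretin against saline, lost without Saline 35, 50, 73, Calorie restricted 7, 8, 52, Semaglutide 31 or Dicretin 14, 23, 65 (adjusted p from 0.0518 to 0.134). Gstk1, the kappa-class enzyme of mitochondria and peroxisomes, ranged from 214 to 337 CPM with Dicretin, 120 to 188 CPM under calorie restriction and 128 to 198 CPM with Semaglutide. It was higher with Dicretin than in both (log2 fold change 0.84 ± 0.19 SE, adjusted p = 0.00275 and log2 fold change 0.85 ± 0.19 SE, adjusted p = 0.00236), and against saline, at 180 to 265 CPM, it was not called (0.26, adjusted p = 0.296). Against saline, calorie restriction (-0.58, adjusted p = 0.0705) and Semaglutide (-0.58, adjusted p = 0.0950) were not called in the edgeR fit of all libraries. Calorie restriction was called lower without Calorie restricted 8 (adjusted p = 0.0463) or Semaglutide 11 (0.0358). Semaglutide was called lower without Semaglutide 11 (adjusted p = 0.0295). Gsto1, which reduces dehydroascorbate, was higher with Dicretin than under calorie restriction (log2 fold change 0.74 ± 0.15 SE, adjusted p = 0.00139). Its rise against saline (0.45, adjusted p = 0.0296) was lost without Saline 35 (adjusted p = 0.0789), Saline 50 (0.0772), Dicretin 64 (0.0708) or Dicretin 65 (0.0941).

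**Figure D2:**
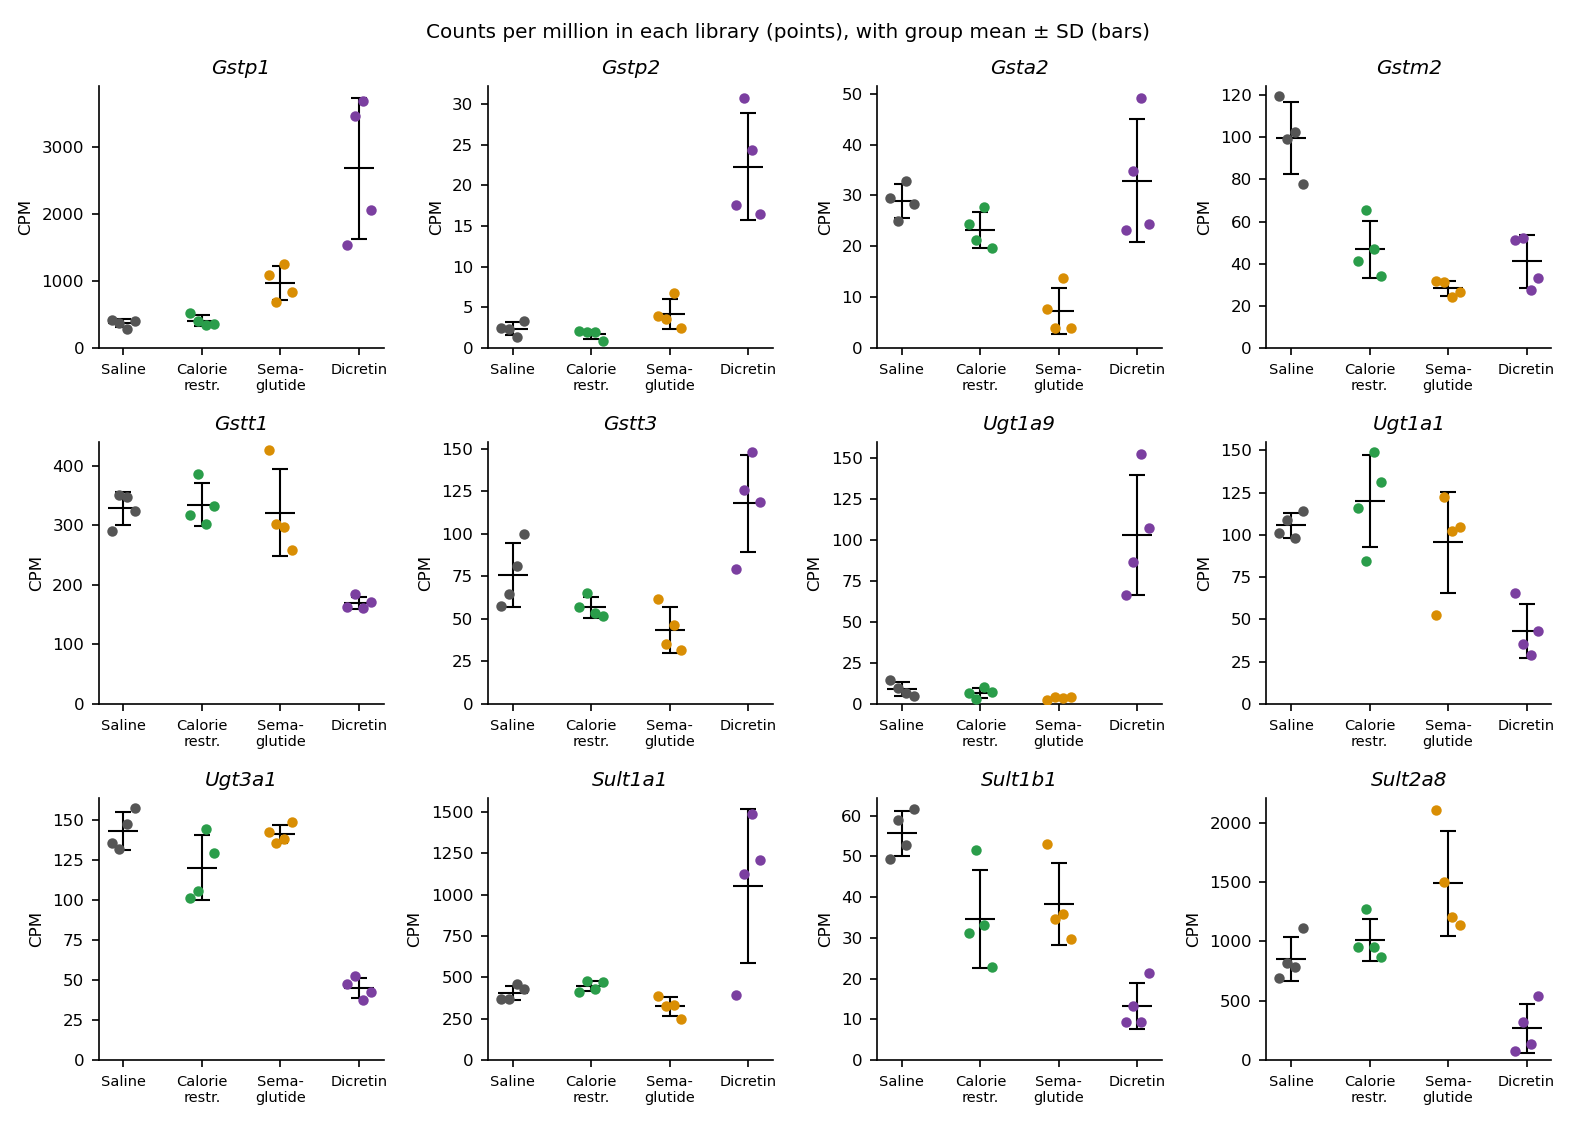
CPM of 12 members in each of the 16 libraries (points), with the group mean ± SD (black bars), for saline, calorie restriction, Semaglutide and Dicretin. The Dicretin points lie apart from the other 12 libraries for Gstp1, Gstp2, Gstt1, Ugt1a9, Ugt3a1, Sult1b1 and Sult2a8, and in Sult1a1 Dicretin 14 lies among the other groups.

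The Ugt1a locus on chromosome 1 joins a series of alternative first exons to shared downstream exons, so that each first exon gives an enzyme of its own with a common C-terminal part. Here too neighbours moved in opposite directions. Ugt1a9 (ENSMUSG00000090175, chr1:88070800-88218997, plus strand), which glucuronidates bulky phenols and fatty acids, was at 14.8, 10.003, 7.01 and 4.71 CPM in saline and 6.72, 2.90, 10.4 and 7.28 CPM under calorie restriction. With Semaglutide the values were 2.17, 4.07, 3.43 and 4.38 CPM, and with Dicretin they were 66.1, 86.2, 152 and 107 CPM. Every Dicretin library exceeded the highest of the other 12. Ugt1a9 rose with Dicretin against saline (log2 fold change 3.48 ± 0.37 SE, adjusted p = 1.19e-06), calorie restriction (log2 fold change 3.90 ± 0.38 SE, adjusted p = 5.58e-07) and Semaglutide (log2 fold change 4.86 ± 0.40 SE, adjusted p = 7.25e-08), and these were the largest log2 fold changes upward of any tested member in each of these comparisons. The Semaglutide libraries all lay below the lowest saline library (log2 fold change -1.38 ± 0.38 SE, adjusted p = 0.0466), and that call was lost without Saline 35, 50, 73, Calorie restricted 7, 79, Semaglutide 11, 15, 31, 51 or Dicretin 23, 65 (adjusted p from 0.0529 to 0.191).

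Ugt1a1, the enzyme that glucuronidates bilirubin, was at 101, 109, 98.2 and 114 CPM in saline, 116, 84.8, 149 and 131 CPM under calorie restriction, 52.8, 123, 102 and 105 CPM with Semaglutide and 65.8, 35.2, 29.1 and 43.2 CPM with Dicretin. The Dicretin libraries lay below all saline and calorie-restricted libraries, and Semaglutide 11 fell within the Dicretin range. Ugt1a1 fell with Dicretin against saline (log2 fold change -1.28 ± 0.25 SE, adjusted p = 0.000662), calorie restriction (log2 fold change -1.47 ± 0.25 SE, adjusted p = 0.000265) and Semaglutide (log2 fold change -1.14 ± 0.25 SE, adjusted p = 0.00196). Ugt1a6b, which glucuronidates planar phenols, was at 38.7, 36.1, 28.4 and 28.2 CPM in saline and 32.5, 19.7, 36.1 and 36.7 CPM under calorie restriction. Its values were 14.7, 31.7, 21.3 and 34.1 CPM with Semaglutide and 10.2, 10.8, 7.38 and 9.96 CPM with Dicretin. Its Dicretin libraries lay below the other 12, and it fell against saline (log2 fold change -1.77 ± 0.25 SE, adjusted p = 2.51e-05), calorie restriction (log2 fold change -1.70 ± 0.25 SE, adjusted p = 4.88e-05) and Semaglutide (log2 fold change -1.41 ± 0.25 SE, adjusted p = 0.000275). Its close copy Ugt1a6a was lower as well (-1.16, adjusted p = 0.0186 against saline). The call did not hold without Saline 73 (adjusted p = 0.0749) or Dicretin 14 (0.0551). Ugt1a5 was lower with Dicretin than in saline (log2 fold change -2.49 ± 0.68 SE, adjusted p = 0.00938), and without Dicretin 14 its log2 fold change was -3.66. Its Semaglutide libraries, at 1.36 to 6.77 CPM, also lay below all saline libraries, at 7.89 to 21.3 CPM. That difference was not called in the edgeR fit of all libraries (log2 fold change -2.26, adjusted p = 0.0725). It was called without Semaglutide 15 (adjusted p = 0.0319), Dicretin 14 (0.0247) or Dicretin 64 (0.0454).

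Per kilobase of exon that is not shared with another gene, the Ugt1a9 level was 3.85% ± 1.94 (SD, n = 4) of the Ugt1a1 level in saline and 122% ± 77.3 (SD, n = 4) with Dicretin, with the 4 Dicretin libraries from 44.0% to 229%. On that scale Ugt1a1 was at 274 ± 18.8 CPM per kb in saline and 113 ± 41.8 CPM per kb with Dicretin, and Ugt1a9 was at 10.4 ± 4.97 and 117 ± 41.8 CPM per kb (SD, n = 4). The unshared length was 385 bases for Ugt1a1 and 879 bases for Ugt1a9, counting overlap on either strand as shared, and the scaled values depend on it. Without division by length, the Ugt1a9 level was 8.78% ± 4.44 of the Ugt1a1 level in saline (SD, n = 4). With Dicretin it was 279% ± 177 (SD, n = 4), from 100% to 523%. The 9 Ugt1a genes summed to 339 ± 22.7 CPM per kb in saline and 244 ± 27.2 CPM per kb with Dicretin, and to 168 ± 15.4 and 161 ± 23.4 CPM without division by length (SD, n = 4), and these sums were not tested. From 52.1% to 79.8% of the 50-base stretches of these genes occur in another gene, because of the shared exons. The other first exons, Ugt1a2, Ugt1a7c, Ugt1a8 and Ugt1a10, had 4 to 72 counts over all 16 libraries, so reads over the shared exons were not counted for every gene of the locus.

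The windows before Ugt1a9 and Ugt1a1 are shown because these genes share an exon set and moved apart. Each run is the 250 bases upstream of the RefSeq start in GRCm38.p6, 5′ to 3′, with capitals at the letters GTTAAT or their reverse complement, a half-site of the hepatocyte factor HNF1.
Ugt1a9 (chr1:88070529-88070778, plus strand): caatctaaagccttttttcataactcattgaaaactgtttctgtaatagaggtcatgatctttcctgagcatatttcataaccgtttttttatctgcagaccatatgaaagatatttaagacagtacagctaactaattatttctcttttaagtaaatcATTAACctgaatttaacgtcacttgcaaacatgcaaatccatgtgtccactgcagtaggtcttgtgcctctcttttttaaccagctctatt
Ugt1a1 (chr1:88211709-88211958, plus strand): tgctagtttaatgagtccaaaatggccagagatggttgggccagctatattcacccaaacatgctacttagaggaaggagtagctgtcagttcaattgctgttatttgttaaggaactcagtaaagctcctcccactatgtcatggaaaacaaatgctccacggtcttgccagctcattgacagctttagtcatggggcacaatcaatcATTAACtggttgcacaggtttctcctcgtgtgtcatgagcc
The match starts 91 bases before the Ugt1a9 start and 41 bases before the Ugt1a1 start, and the runs were identical at 46.2% of their aligned columns. A longer form of the HNF1 motif was searched first, and the half-site was chosen after its matches in these windows were seen. These letters are in the same window of 6.43% of all 32851 RefSeq promoters and of 14 of the 58 members with a promoter in the table, among them Ugt1a6a and Ugt1a10 of the same locus. They are not in this window of Ugt1a5. The letters are in the window of a gene that rose and of genes that fell, and binding was not measured.

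**Figure D3:**
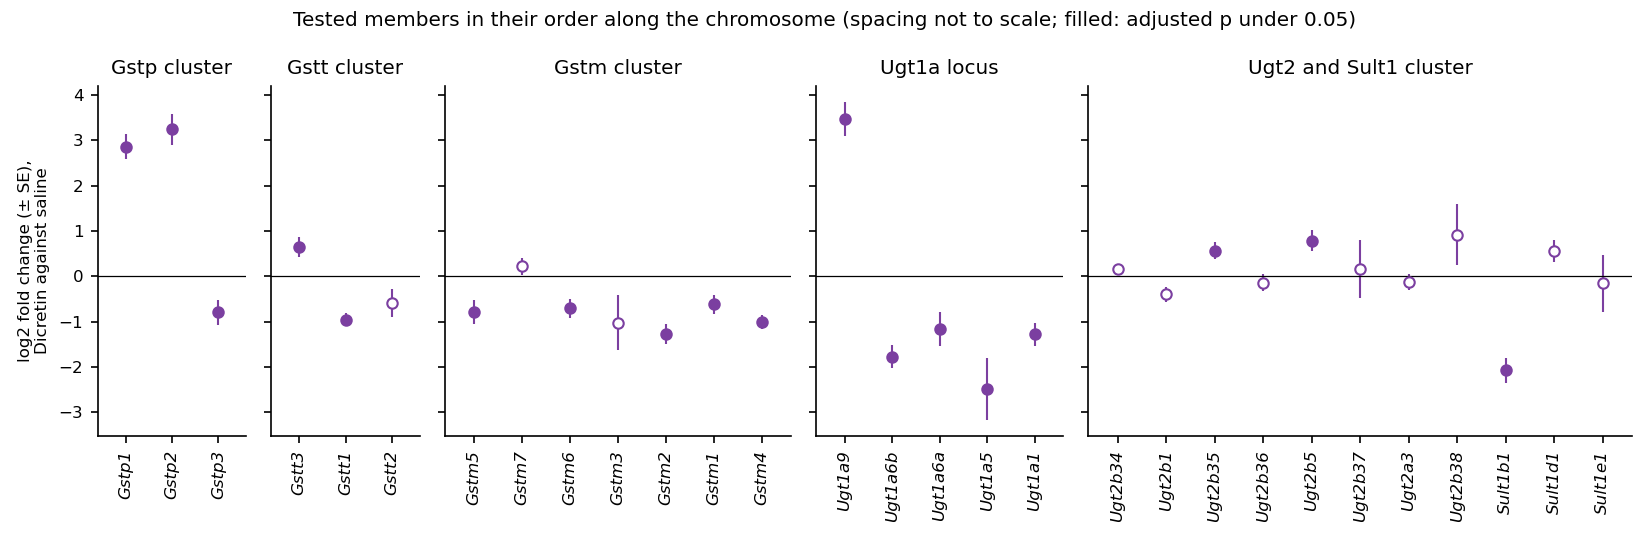
log2 fold change (± SE) of Dicretin against saline for the tested members of 5 gene clusters in their order along the chromosome, with filled points where the adjusted p was under 0.05. Gstp1 and Gstp2 (2.86 and 3.24) lie above 0 with Gstp3 (-0.79) below, Gstt3 (0.64) lies beside Gstt1 (-0.95), and Ugt1a9 (3.48) stands above 4 lower genes of its locus.

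The Ugt2 genes on chromosome 5 act on steroids, bile acids and drugs. With Dicretin against saline, 2 of 7 tested Ugt2b genes were higher and none lower, and the 1 tested Ugt2a gene was not called. The higher Ugt2b genes made up 28.6%, against 17.5% of all genes tested, and 19.2% of all genes tested were lower. Ugt2b5 was at 725, 702, 732 and 682 CPM in saline, 727, 773, 728 and 635 CPM under calorie restriction, 1430.1, 779, 1065 and 749.6 CPM with Semaglutide and 829.6, 1035, 1900.5 and 1135 CPM with Dicretin. The Dicretin libraries lay above all saline and calorie-restricted libraries, with Dicretin 64 and Semaglutide 11 the highest of their groups. Ugt2b5 rose with Dicretin against saline (log2 fold change 0.79 ± 0.23 SE, adjusted p = 0.0109). It lost its call without Dicretin 64 (adjusted p = 0.0570), the library with pancreas transcripts. Against calorie restriction it rose likewise (log2 fold change 0.78 ± 0.23 SE, adjusted p = 0.0140), lost without Dicretin 64 (adjusted p = 0.0739). Ugt2b35 was also higher with Dicretin than in saline (0.57, adjusted p = 0.0182), lost without Saline 73 (adjusted p = 0.0549) or Dicretin 64 (0.0812).

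Ugt2b34 was at 473, 433, 469 and 462 CPM in saline and 695, 744, 743 and 633 CPM under calorie restriction. The Semaglutide libraries were at 544, 549, 604 and 508 CPM and the Dicretin libraries at 536, 515, 535 and 465 CPM. The 4 calorie-restricted libraries exceeded all 12 others. Ugt2b34 was the single member that rose with calorie restriction against saline (log2 fold change 0.62 ± 0.12 SE, adjusted p = 0.00324), and it was lower with Dicretin than under calorie restriction (log2 fold change -0.46 ± 0.12 SE, adjusted p = 0.00619). Ugt2b1 was lower with Dicretin than under calorie restriction (log2 fold change -0.58 ± 0.17 SE, adjusted p = 0.0142). That call was lost without Calorie restricted 8 (adjusted p = 0.0509).

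Abundant Ugt2 genes without a called difference in the fit of all libraries were Ugt2b36 and Ugt2a3. Ugt2b36 was at 826, 833, 850.0 and 877 CPM in saline, 659, 807, 776 and 667 CPM under calorie restriction, 1532, 856, 1019 and 786 CPM with Semaglutide and 640.1, 700.3, 938 and 797 CPM with Dicretin. Semaglutide 11 held the highest level. Ugt2b36 was called lower with Dicretin than with Semaglutide without Semaglutide 15 (adjusted p = 0.0493), Semaglutide 51 (0.0339) or Dicretin 64 (0.0373), and higher with Semaglutide than under calorie restriction without Semaglutide 51 (adjusted p = 0.0465). The DESeq2 Wald test also called it higher with Semaglutide than under calorie restriction (adjusted p = 0.0469). Ugt2a3, known for conjugating bile acids in humans, was at 332, 338, 387 and 433 CPM in saline, 323, 336, 318 and 307 CPM under calorie restriction, 426, 327, 329 and 312 CPM with Semaglutide and 210.1, 343, 418 and 389 CPM with Dicretin, with Dicretin 14 the lowest of all. At the other end of abundance, Ugt2b38 was at 0.562, 0.640, 0.136 and 0.579 CPM in saline and 0.759, 0.535, 0.0523 and 0.334 CPM under calorie restriction. With Semaglutide the values were 2.02, 1.52, 2.79 and 3.26 CPM, and with Dicretin they were 1.82, 1.27, 0.339 and 0.0866 CPM. Its Semaglutide libraries lay above all saline and calorie-restricted libraries, and Semaglutide exceeded calorie restriction (log2 fold change 2.52 ± 0.66 SE, adjusted p = 0.0284). This call was lost without Calorie restricted 8, 52, 79 or Semaglutide 31, 51 (adjusted p from 0.0559 to 0.0903). A share of 37.4% of its 50-base stretches occurs in another gene, chiefly Ugt2b5, so its counts are uncertain. Over all 16 libraries Ugt2b5 averaged 492 CPM per kb and Ugt2b38 averaged 0.552 CPM per kb.

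Both Ugt3a genes on chromosome 15, whose human counterparts use other UDP-sugars than UDP-glucuronic acid, were lower with Dicretin. Ugt3a1 was at 136, 132, 147 and 158 CPM in saline, 101, 105, 144 and 129 CPM under calorie restriction, 142, 135, 138 and 149 CPM with Semaglutide and 47.3, 52.7, 37.7 and 42.2 CPM with Dicretin. Even the highest Dicretin library, Dicretin 23, lay far below the lowest of the other 12. Ugt3a1 fell against saline (log2 fold change -1.67 ± 0.14 SE, adjusted p = 8.36e-08), calorie restriction (log2 fold change -1.42 ± 0.14 SE, adjusted p = 6.23e-07) and Semaglutide (log2 fold change -1.65 ± 0.14 SE, adjusted p = 1.00e-07). Ugt3a2 was at 351, 342, 349.6 and 364 CPM in saline and 287, 289.8, 385 and 358 CPM under calorie restriction. Its values were 348, 379, 373 and 385 CPM with Semaglutide and 229, 267, 228 and 241 CPM with Dicretin. Its Dicretin libraries also lay below the other 12. Its fall was smaller, against saline (log2 fold change -0.54 ± 0.12 SE, adjusted p = 0.00228), calorie restriction (log2 fold change -0.45 ± 0.12 SE, adjusted p = 0.0102) and Semaglutide (log2 fold change -0.62 ± 0.12 SE, adjusted p = 0.000886).

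Among the sulfotransferases, the phenol enzyme Sult1a1 rose and the bile acid enzyme Sult2a8 fell with Dicretin. Sult1a1 was at 371, 372, 458 and 429.8 CPM in saline, 411, 479, 432 and 471 CPM under calorie restriction, 388, 327, 332 and 251 CPM with Semaglutide and 393, 1125, 1490.2 and 1209.7 CPM with Dicretin. Dicretin 14 lay within the saline range, and the other 3 Dicretin libraries lay above all 12 libraries of the other groups. Sult1a1 rose with Dicretin against saline (log2 fold change 1.37 ± 0.27 SE, adjusted p = 0.000593), calorie restriction (log2 fold change 1.23 ± 0.27 SE, adjusted p = 0.00181) and Semaglutide (log2 fold change 1.70 ± 0.27 SE, adjusted p = 9.84e-05), and without Dicretin 14 the log2 fold change against saline was 1.66. Sult2a8 (ENSMUSG00000030378, chr7:14410686-14446769, minus strand) was at 690.0, 821, 787 and 1116 CPM in saline and 951, 1271, 952 and 869 CPM under calorie restriction. The Semaglutide libraries were at 2108, 1499.6, 1209 and 1140.2 CPM and the Dicretin libraries at 73.6, 319, 134 and 539 CPM. The Dicretin libraries lay below the other 12, and the Semaglutide libraries lay above all saline libraries. Sult2a8 fell with Dicretin against saline (log2 fold change -1.68 ± 0.42 SE, adjusted p = 0.00506), calorie restriction (log2 fold change -1.92 ± 0.43 SE, adjusted p = 0.00259) and Semaglutide (log2 fold change -2.48 ± 0.44 SE, adjusted p = 0.000333). The higher Semaglutide level was not called against saline (log2 fold change 0.80 ± 0.41 SE, adjusted p = 0.309). Without Dicretin 65, the highest of its group, the log2 fold changes of Dicretin were -2.28 against saline, -2.52 against calorie restriction and -3.08 against Semaglutide.

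Sult1b1, which sulfonates thyroid hormones and phenols, was at 49.3, 58.9, 52.8 and 61.6 CPM in saline, 31.1, 51.5, 33.2 and 22.8 CPM under calorie restriction, 52.95, 34.7, 35.96 and 29.6 CPM with Semaglutide and 9.27, 13.2, 9.35 and 21.3 CPM with Dicretin. Its Dicretin libraries lay below the other 12. Sult1b1 fell with Dicretin against saline (log2 fold change -2.08 ± 0.27 SE, adjusted p = 1.21e-05), calorie restriction (log2 fold change -1.39 ± 0.27 SE, adjusted p = 0.000732) and Semaglutide (log2 fold change -1.54 ± 0.27 SE, adjusted p = 0.000263). Sult1d1, its neighbour on chromosome 5 and a catecholamine sulfotransferase in mice, was at 168, 147, 182 and 221 CPM in saline and 138, 217, 187 and 154 CPM under calorie restriction. With Semaglutide the values were 335, 179, 183 and 159.5 CPM, and with Dicretin they were 171, 297, 242 and 349 CPM. The groups overlapped, and no comparison was called in the edgeR fit of all libraries (0.56, adjusted p = 0.0767 for Dicretin against saline). The DESeq2 Wald test called Sult1d1 higher with Dicretin than under calorie restriction (adjusted p = 0.0487). Dicretin was called higher than saline without Semaglutide 11 (adjusted p = 0.0262) or Dicretin 14 (0.0194), higher than calorie restriction without Semaglutide 11 (adjusted p = 0.0209) or Dicretin 14 (0.0178) and higher than Semaglutide without Semaglutide 11 (adjusted p = 0.0345). Sult1c2 was at 13.5, 10.99, 10.3 and 13.1 CPM in saline, 8.06, 7.18, 7.85 and 6.55 CPM under calorie restriction, 19.1, 9.18, 14.4 and 8.33 CPM with Semaglutide and 4.45, 4.12, 5.89 and 5.63 CPM with Dicretin. The Dicretin libraries lay below the other 12. Sult1c2 fell with Dicretin against saline (log2 fold change -1.25 ± 0.23 SE, adjusted p = 0.000402) and Semaglutide (log2 fold change -1.34 ± 0.23 SE, adjusted p = 0.000243), and the difference from calorie restriction was not called (-0.57, adjusted p = 0.0736) except without Semaglutide 11 (adjusted p = 0.0315). Semaglutide against calorie restriction (0.78, adjusted p = 0.0496) was lost without Saline 35, 50, 73, 78, Calorie restricted 7, 8, 52, 79, Semaglutide 11, 31 or Dicretin 23, 64 (adjusted p from 0.0505 to 0.188).

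The remaining tested sulfotransferases were scarce. Sult2a7, a hydroxysteroid-type enzyme, was at 2.75, 4.42, 4.08 and 3.89 CPM in saline and 3.27, 6.26, 3.35 and 3.47 CPM under calorie restriction. Its values were 4.88, 1.45, 2.79 and 2.69 CPM with Semaglutide and 2.52, 2.73, 0.339 and 1.39 CPM with Dicretin. Dicretin 64 was the lowest and Calorie restricted 8 the highest. Its lower level with Dicretin than under calorie restriction (log2 fold change -1.20 ± 0.44 SE, adjusted p = 0.0442) was lost without Saline 35, 50, 73, 78, Calorie restricted 7, 8, 52, 79, Semaglutide 31, 51 or Dicretin 64, 65 (adjusted p from 0.0507 to 0.147). Sult5a1 was at 7.53, 4.88, 9.25 and 6.04 CPM in saline, 3.91, 5.58, 2.25 and 3.94 CPM under calorie restriction, 7.58, 6.97, 4.21 and 3.94 CPM with Semaglutide and 3.75, 5.07, 2.57 and 6.06 CPM with Dicretin, and was called in no comparison. In the fit of calorie restriction and saline alone Sult5a1 was called lower under calorie restriction (adjusted p = 0.0400). Sult1e1, the oestrogen sulfotransferase, had 134 counts over the 16 libraries and was called in no comparison. A further 13 SULT genes, 6 UGT genes and 3 GST or MGST genes were below the filter. Of these 22, Ugt2a1, Ugt2a2, Sult1c1, Sult2a6 and Sult6b2 had no count in any library, and the others had 1 to 72 counts over all 16 libraries.

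Levels summed over families add counts without division by gene length. The 66 members together held 13836, 14162, 14034 and 14528 CPM in the saline libraries, 12572, 15217, 13583 and 12697 CPM under calorie restriction, 19478, 13229, 14722 and 12196 CPM with Semaglutide and 10455, 15091, 17347 and 13235 CPM with Dicretin. Semaglutide 11 was the highest and Dicretin 14 the lowest library, and the groups overlapped. The GST sum was 9123 ± 139.7 CPM in saline and 8671 ± 1855 CPM with Dicretin (SD, n = 4 each). The UGT sum was 3498 ± 88.7 CPM in saline and 3749.5 ± 754 CPM with Dicretin, and the SULT sum was 1519.9 ± 237 CPM in saline and 1611 ± 653 CPM with Dicretin. The log2 ratio of mean Dicretin to mean saline sums was 2.79 for the pi class, -0.54 for alpha, -0.64 for mu, -0.64 for the microsomal genes, -0.79 for Ugt3a, 1.03 for Sult1 and -1.67 for Sult2. The pi class went from 393 ± 60.3 CPM in saline to 999 ± 259.8 CPM with Semaglutide and 2713 ± 1058 CPM with Dicretin. These sums were not tested, and abundant genes such as Mgst1 and Gsta3 weigh most in them.

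**Figure D4:**
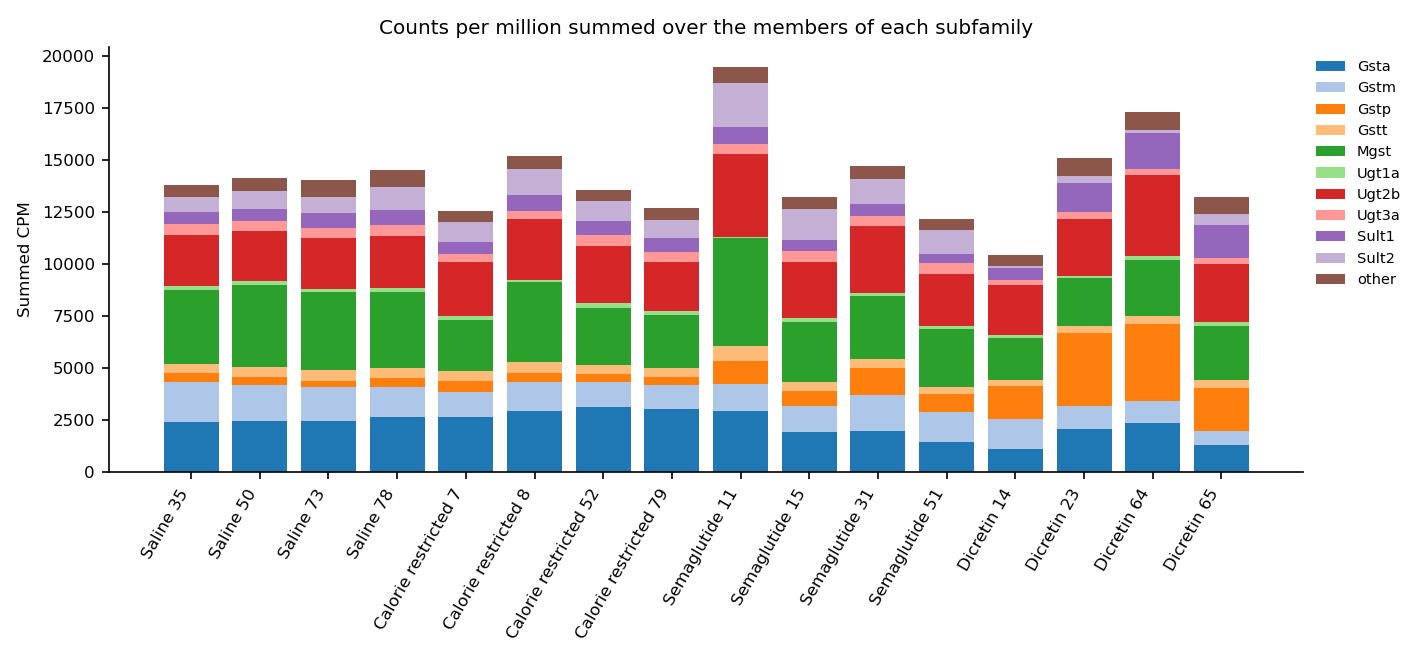
Summed CPM of the members of each subfamily (stacked bars from 0) in each of the 16 libraries. The totals run from 10455 CPM in Dicretin 14 to 19478 CPM in Semaglutide 11, and the Gstp segment is largest in the 4 Dicretin libraries.

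Genes that supply the cosubstrates, and those of the lists below, were counted from lists chosen with earlier results of these data known. Some genes, among them Gclc, Cyp1a2 and Ces2a, are shared between lists. Of 14 tested genes of glutathione supply and recycling, 2 were higher and 2 lower with Dicretin than in saline. That is 28.6% called, below the 36.7% of all genes tested (17.5% higher and 19.2% lower), with a median log2 fold change of 0.17 against -0.0054. Cbs and Cth, which make cysteine from homocysteine, rose from 338 to 798 CPM on average (log2 fold change 1.24 ± 0.23 SE, adjusted p = 0.000419) and from 324 to 1571 CPM (log2 fold change 2.28 ± 0.22 SE, adjusted p = 3.50e-07). Anpep, a peptidase that cleaves cysteinylglycine, fell (log2 fold change -1.31 ± 0.18 SE, adjusted p = 2.11e-05), as did Ggct, which breaks down gamma-glutamyl peptides (log2 fold change -1.08 ± 0.20 SE, adjusted p = 0.000453). Of 7 tested genes around UDP-glucuronic acid, 2 were lower and none higher with Dicretin. That is 28.6% called, against 36.7% of all genes tested, and 28.6% lower, against 19.2%. The median log2 fold change of this list was -0.28. The lower genes included the nucleotide sugar transporter Slc35d2 (log2 fold change -1.73 ± 0.19 SE, adjusted p = 1.95e-06). Ugdh, which makes UDP-glucuronic acid, was at 166 CPM with Dicretin and 166 CPM in saline on average, and it fell with Semaglutide to 81.9 CPM (log2 fold change -1.02 ± 0.17 SE, adjusted p = 0.00244). Slc35b1, an ATP carrier of the endoplasmic reticulum, rose under calorie restriction (log2 fold change 1.19 ± 0.22 SE, adjusted p = 0.00319).

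Of 10 tested genes that make or move activated sulfate, 1 was higher and 5 lower with Dicretin, with a median log2 fold change of -0.58, so that 50% were lower against 19.2% of all genes tested. Papss2, the PAPS synthase, fell from 248 to 109 CPM (log2 fold change -1.19 ± 0.22 SE, adjusted p = 0.000316). The sulfate transporter Slc26a2 fell with Dicretin (log2 fold change -1.29 ± 0.19 SE, adjusted p = 3.61e-05) and with Semaglutide (log2 fold change -0.81 ± 0.18 SE, adjusted p = 0.0149), and the sulfate carrier Slc13a4 fell with Dicretin (log2 fold change -3.54 ± 0.73 SE, adjusted p = 0.00101). Impad1, a phosphatase that clears the used sulfate donor, rose (log2 fold change 0.62 ± 0.13 SE, adjusted p = 0.000865). Of 8 tested genes on a list named deconjugating enzymes, which also holds carboxylesterases, 1 was higher and 2 lower with Dicretin. This 37.5% is near the 36.7% of all genes tested. By direction, 12.5% were higher and 25% lower, against 17.5% and 19.2% of all genes tested, with a median log2 fold change of -0.43. Gusb, the lysosomal beta-glucuronidase, rose (log2 fold change 1.11 ± 0.15 SE, adjusted p = 1.34e-05). The 2 lower genes were the carboxylesterases Ces1d (log2 fold change -2.34 ± 0.25 SE, adjusted p = 9.57e-07) and Ces2a (log2 fold change -1.32 ± 0.27 SE, adjusted p = 0.00106). Carboxylesterases cleave esters rather than the conjugates made by the 3 families, so the counts of this list do not describe deconjugation alone. The arylsulfatase Arsa fell under calorie restriction (log2 fold change -1.08 ± 0.18 SE, adjusted p = 0.00139).

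Of 13 tested transporters that carry conjugates, 8 were lower with Dicretin, none was higher and 5 were not called, with a median log2 fold change of -1.23. The lower genes made up 61.5%, against 19.2% of all genes tested. Abcc3, which exports glucuronides to blood, was at 293 CPM on average in saline, 179 CPM under calorie restriction, 194 CPM with Semaglutide and 50.3 CPM with Dicretin. All 3 treatments were called lower (log2 fold change -2.54 ± 0.18 SE, adjusted p = 8.23e-09 for Dicretin). Abcg2, a canalicular exporter of sulfates, fell with Dicretin (log2 fold change -1.81 ± 0.17 SE, adjusted p = 2.15e-07), as did the uptake carrier Slco2b1 (log2 fold change -1.23 ± 0.15 SE, adjusted p = 5.64e-06). The uptake carrier Slco1a1 went in opposite directions, falling with Dicretin from 53.9 to 4.50 CPM (log2 fold change -3.56 ± 0.42 SE, adjusted p = 3.84e-06) and rising to 544 CPM with Semaglutide (log2 fold change 3.34 ± 0.39 SE, adjusted p = 0.000129) and 264 CPM under calorie restriction (log2 fold change 2.29 ± 0.38 SE, adjusted p = 0.00132).

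Of 17 tested xenobiotic receptors and liver transcription factors, 1 was higher and 6 lower with Dicretin, 41.2% called against 36.7% of all genes tested. By direction, 5.88% were higher and 35.3% lower, against 17.5% and 19.2% of all genes tested, with a median log2 fold change of -0.34. Nr1i3 (CAR) was lower by the most among those named, at 78.4 CPM on average in saline and 9.10 CPM with Dicretin (log2 fold change -3.13 ± 0.42 SE, adjusted p = 2.27e-05). The bile acid receptor Nr1h4 (log2 fold change -1.004 ± 0.17 SE, adjusted p = 0.000189), Ahr (log2 fold change -1.08 ± 0.25 SE, adjusted p = 0.00245) and its partner Arnt (log2 fold change -0.94 ± 0.17 SE, adjusted p = 0.000292) were lower too. Of 19 tested CAR, PXR and AhR targets outside the 3 families, 10 were lower and 1 higher with Dicretin, with a median log2 fold change of -0.99, so that 52.6% were lower against 19.2% of all genes tested. They included the cytochromes Cyp2c50 (log2 fold change -4.67 ± 0.36 SE, adjusted p = 2.97e-08), Cyp2c37 (log2 fold change -3.66 ± 0.49 SE, adjusted p = 2.33e-05), Cyp2c29 (log2 fold change -1.34 ± 0.21 SE, adjusted p = 8.59e-05) and Cyp1a2 (log2 fold change -2.18 ± 0.24 SE, adjusted p = 1.58e-06). Of 17 tested NRF2 targets outside the 3 families, 4 were higher and 4 lower, 23.5% in each direction, near the 17.5% higher and 19.2% lower of all genes tested. Hmox1, which degrades haem, rose (log2 fold change 1.46 ± 0.25 SE, adjusted p = 0.000208), as did ferritin light chain Ftl1 (log2 fold change 0.87 ± 0.17 SE, adjusted p = 0.000573). The quinone reductase Nqo1 fell with Dicretin (log2 fold change -1.45 ± 0.24 SE, adjusted p = 0.000121) and with Semaglutide (log2 fold change -1.07 ± 0.23 SE, adjusted p = 0.0126), and Taldo1 of the pentose phosphate pathway fell with Dicretin (log2 fold change -0.95 ± 0.16 SE, adjusted p = 0.000186).

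Other conjugating enzymes, outside the 3 families, gave 3 higher and 11 lower genes of 17 tested with Dicretin, with a median log2 fold change of -0.76. The lower genes made up 64.7% and the higher ones 17.6%, against 19.2% and 17.5% of all genes tested. Nnmt, which methylates nicotinamide, rose from 135 to 1649.5 CPM (log2 fold change 3.61 ± 0.34 SE, adjusted p = 2.78e-07), and the arsenic methyltransferase As3mt rose (log2 fold change 1.19 ± 0.13 SE, adjusted p = 1.68e-06). Tpmt, the thiopurine methyltransferase, fell (log2 fold change -1.997 ± 0.17 SE, adjusted p = 7.49e-08), as did Nat8, which acetylates cysteine conjugates in the last step of mercapturate formation (log2 fold change -3.39 ± 0.35 SE, adjusted p = 7.05e-07). Genes that mark liver zones moved in the same samples: 11 of 15 pericentral genes were lower (73.3%, against 19.2% of all genes tested) and none higher with Dicretin, with Glul, glutamine synthetase, at -2.24, adjusted p = 2.55e-07. Of 15 periportal genes, 11 were higher (73.3%, against 17.5% of all genes tested) and 2 lower, with Cps1, of the urea cycle, at 1.55, adjusted p = 1.60e-06. The part of zonation in the members' values was not tested.

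**Figure D5:**
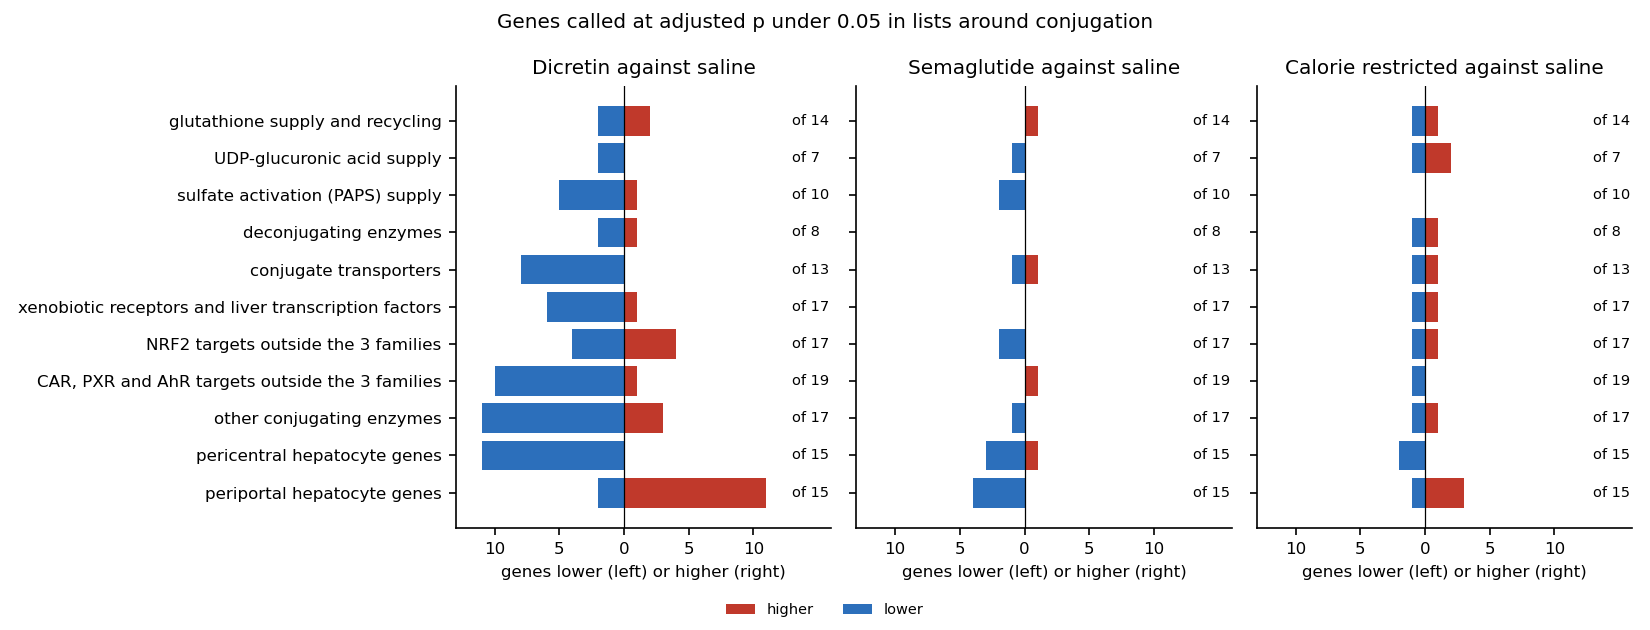
Genes called higher (red, to the right) or lower (blue, to the left) against saline in each list around conjugation, for Dicretin, Semaglutide and calorie restriction, with the number tested at the right of each bar. Conjugate transporters show 8 lower and no higher gene of 13 with Dicretin, and no list has more than 4 genes called in 1 direction with Semaglutide or calorie restriction.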

How the data were processed

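The deposited table held raw counts of reads per gene, which the authors made with TopHat2 2.1.1 and featureCounts on mm10, per the submitters' processing notes. The annotation release, the strand setting and the treatment of reads that match several genes are not given in the sources used here, so genes with close copies or overlapping exons have uncertain counts. Libraries were poly(A)-selected and directional, per the labels' protocols. Gene types, positions and 50-base sharing between transcripts were taken from GENCODE M21, and promoters from RefSeq (GRCm38.p6), matching 58 of 66 members.

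Counts of all 16 libraries were fitted in R 4.3.3 with edgeR 4.0.16 (filterByExpr, TMM factors, glmQLFit robust, glmQLFTest). The fit used 1 mean per group and no covariate. The p-values were adjusted by Benjamini-Hochberg over the 12910 genes tested within each of 6 comparisons, with calls under 0.05 and not adjusted across comparisons. The SE was the absolute log2 fold change divided by the square root of F. The test was checked on simulated counts. Levels are CPM of TMM-scaled totals, divided by kilobases of exon not shared with another gene where genes are compared. No 2 of the 120 library pairs were identical. Values in every library are given for the 4 members per superfamily with the highest CPM per kb and the 7 with the smallest p over the 4 groups, and up to 4 genes per list for the other pathways. The members, gene lists and promoter motifs were chosen with earlier results of these data known. Alternatives were DESeq2 1.42.0 size factors and Wald test, upper quartile factors, fits with no low-count filter, with a filter of 1 CPM in 4 libraries, without the 20 genes of highest abundance, of the 2 groups alone, and with each library left out.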

Additional observations from a re-analysis of the deposited data

Results flagged for a closer look

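Levels of the 27 members given by library were checked within each group of 4 for a library far from its mates, and 6 of 108 checks stood out, where chance gives about 1 in 20. Semaglutide 11 stood out in 3 of them. Mgst1 was at 5161 CPM there against 2772 to 3018 CPM in the other 3 Semaglutide libraries, Ugt2a3 at 426 CPM against 312 to 329 CPM, and Sult1d1 at 335 CPM against 160 to 183 CPM. Gstp2 was at 0.868 CPM in Calorie restricted 79 against 1.91 to 2.04 CPM in its mates. Ugt2b38 was at 0.136 CPM in Saline 73 against 0.562 to 0.640 CPM in its mates. Sult2a7 was at 6.26 CPM in Calorie restricted 8 against 3.27 to 3.47 CPM in its mates. The cause of these values was not tested.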

How the results depend on the processing

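No paired analysis was possible because the groups share no replicate numbers. Of the 27 members called between Dicretin and saline, 17 kept their call under every alternative, among them Gstp1, Gstp2, Ugt1a9, Ugt1a1, Ugt3a1, Sult1a1, Sult1b1 and Sult2a8. The same held for 4 of 6 between Semaglutide and saline, 3 of 3 between calorie restriction and saline, 17 of 21 between Dicretin and calorie restriction, 2 of 5 between Semaglutide and calorie restriction, and 17 of 25 between Dicretin and Semaglutide. With 1 library left out, the members called ranged from 21 to 30 for Dicretin against saline, 4 to 8 for Semaglutide against saline, 3 to 5 for calorie restriction against saline, 19 to 23 for Dicretin against calorie restriction, 2 to 9 for Semaglutide against calorie restriction and 21 to 25 for Dicretin against Semaglutide. The DESeq2 Wald test called 10 members between Semaglutide and calorie restriction. For calorie restriction against saline, the fit of only the 2 groups compared called 9 members, and the fit without both Semaglutide 11 and Dicretin 14, an alternative chosen after seeing the data, called 5. The log2 fold change of Ugt2b5 between Dicretin and Semaglutide, 0.28 and not called, ran from -0.0085 without Dicretin 64 to 0.50 without Semaglutide 11 with 1 library left out. Without both Semaglutide 11 and Dicretin 14 it was 0.65 and called (adjusted p = 0.0112). Over all genes tested, the count moved by over 1.5 times for calorie restriction against saline (972, with 2569 from only the 2 groups, 1880 without those 2 libraries, and 526, 556, 554 and 502 without Saline 35, Saline 50, Saline 73 and Calorie restricted 7), for Semaglutide against saline (539, with 936 from the Wald test, and 256, 268 and 300 without Saline 35, 50 and 73), for Semaglutide against calorie restriction (790, with 1278 from the Wald test, and 445, 460, 503 and 493 without Calorie restricted 7 and 52 and Semaglutide 11 and 31) and for Dicretin against Semaglutide (4128, with 2658 from only the 2 groups). The causes were not tested. Low counts limit precision, at 1 to 52 reads per library in Ugt2b38, 5 to 82 in Sult2a7 and 13 to 104 in Gstp2 outside the Dicretin group.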
